A study of Xenopus laevis with 4 samples.

Results

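The 8 genes described here encode proteins that activate fatty acids, lengthen them, store them as triglyceride or coat the droplets that hold the stored lipid: acsl1.L, acsl1.S, acsbg2.L, dgat2.L, elovl1.S, cidec.L, plin2.L and plin2.S. They were chosen by function among genes whose RNA differed between whole oocytes and vegetal cortices on these arrays, and every probe set that the platform annotation assigns to exactly 1 of these symbols was taken. That gave 9 probe sets for 8 genes, out of 15491 probe sets and 7531 singly named genes in all. The endings .L and .S mark the homeologs, the copies of a gene that the allotetraploid frog Xenopus laevis carries on its long and short subgenomes. Because the difference between cortex and whole oocyte selected the genes, that difference is described below. The calls given for these genes follow from that choice and are not an independent test of it. No other homeolog of these genes had a singly named probe set, and 0 probe sets with several symbols included 1 of the 8.

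RNA came from full-grown stage VI oocytes of 2 donor females, each of which supplied intact oocytes as the control and manually isolated vegetal cortices, giving 2 arrays per group. All oocytes had been freed with collagenase. The vegetal cortex is the thin layer under the plasma membrane of the yolk-rich lower hemisphere; it was isolated by cutting oocytes in 2 and pressing the yolky cytoplasm out of the vegetal pieces, and cortices were pooled in batches of 10. No strain, genotype or age was given in the sources used here. The comparison asks which RNAs are concentrated in that layer.

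Fatty acids enter most of their metabolism only after they are joined to coenzyme A. The resulting acyl-CoA can be lengthened at the endoplasmic reticulum, burned in mitochondria, or esterified to triglyceride, which is stored in lipid droplets under a coat of perilipin proteins. In Xenopus oocytes the RNA of plin2 was known under the name Fatvg as one of the RNAs held at the vegetal cortex, together with RNAs of the germ plasm, the store of material that marks future germ cells.

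The arrays gave 1 MAS5 signal per probe set, on a linear scale set to the same trimmed mean on every array (1500.1 or 1500.2). A higher signal in the cortex is therefore a share and not an amount: more of an RNA and less of the rest cannot be told apart. Across probe sets, which are not independent of each other, the correlation of log2 signals was 0.973 for the pair of whole oocyte arrays and 0.939 for the pair of cortex arrays. A call means an adjusted p under 0.05 by limma over the 9295 probe sets whose signal averaged 271.5 or more. Of 16 tested probe sets of RNAs known from the vegetal cortex, 15 were called higher in the cortex, beside 3.31% of all tested. Their list's summed signal was 78718 and 85107 in whole oocytes and 564946 and 474789 in cortices. This list, like the others, was chosen with earlier results of these data known. All 9 probe sets of the lipid genes reached the signal limit, and each was above it in whole oocytes alone, with the lowest array at 309.

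All 9 probe sets had higher signals on both cortex arrays than on either whole oocyte array, a separation that 14.7% of all tested probe sets showed. Of the 9, 8 were called higher, beside 3.31% of tested probe sets, and 6 were at least 4-fold higher in both females, beside 2.1%. These counts follow from how the genes were picked. The median log2 change of the 9 was 2.71, with 3.26 in female 1 and 2.38 in female 2, where all tested probe sets had medians of -0.20, -0.27 and -0.12.

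**Figure D1:**
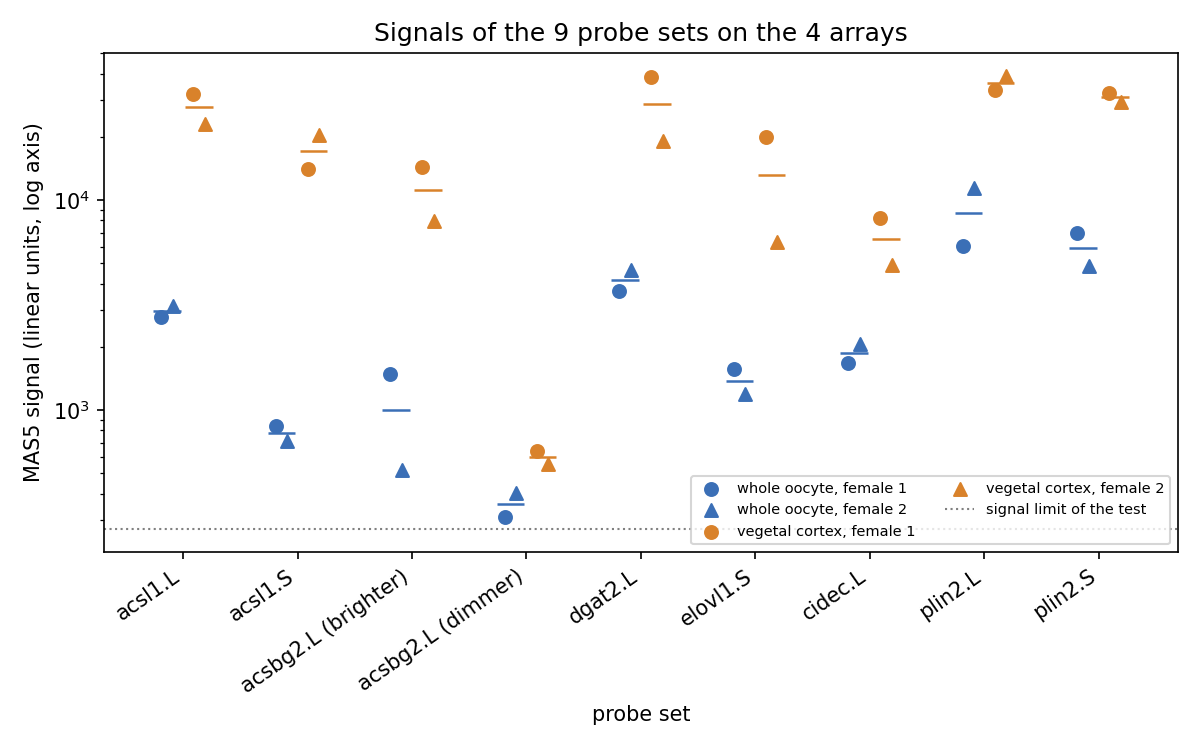
MAS5 signal on a log axis for each of the 9 probe sets, with circles for female 1, triangles for female 2, and short lines for the mean of each pair of arrays. In every probe set both cortex points lie above both whole oocyte points, and the dimmer acsbg2.L probe set has the narrowest gap, from 402 to 553.

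Among the enzymes of fatty acid activation, acsl1 encodes a long-chain acyl-CoA synthetase and was represented by both homeologs. The acsl1.S probe set had signals of 836 and 716 in whole oocytes of females 1 and 2, and of 14076 and 20290.1 in their cortices. Its whole oocyte signals were above the median signals of those arrays, 601 and 555. Of the 9 probe sets it had the largest change, 21.3-fold (log2 change 4.42 ± 0.35 SE, n = 2 arrays per group). The acsl1.L probe set read 2787 and 3146 in whole oocytes of females 1 and 2, and 32067 and 23099 in their cortices. Its whole oocyte arrays lay close together, and the change was 9.14-fold (log2 3.19 ± 0.31). The probe sets of the copies differed in how the females ranked. The larger ratio for acsl1.S was in female 2 (27.6-fold against 16.5-fold), and for acsl1.L in female 1 (11.4-fold against 7.30-fold). Whether each probe set reads only its own copy was not tested. Different probe sets differ in brightness for the same amount of RNA, so the signals do not say which copy was more abundant.

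acsbg2.L encodes an acyl-CoA synthetase of the bubblegum family and was the 1 gene of the 8 with more than 1 probe set. The brighter probe set read 1486 and 520.1 in whole oocytes of females 1 and 2, and 14414 and 7976 in their cortices. Female 1 was above female 2 in both kinds of sample, and the cortex was 9.59-fold higher in female 1 and 14.8-fold in female 2 (11.9-fold in the fit, log2 3.58 ± 0.53). The dimmer probe set read 309 and 402 in whole oocytes of females 1 and 2, and 641 and 553 in their cortices. Its groups were also apart, but its change was 1.65-fold (log2 0.72 ± 0.43), and it was the 1 probe set of the 9 that was not called. The size of the difference for acsbg2.L thus depends on the probe set, and which of them reports the transcript better was not tested.

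Past activation, elovl1 encodes an elongase that adds carbons to very long-chain acyl-CoA. The elovl1.S probe set read 1564 and 1192 in whole oocytes of females 1 and 2, and 19961 and 6278 in their cortices. The cortex arrays were far apart, more than the whole oocyte arrays, and the change was 12.6-fold in female 1 and 5.20-fold in female 2 (8.10-fold in the fit, log2 3.02 ± 0.53). Without whole oocyte replicate 1 or without whole oocyte replicate 2 it was not called, with log2 changes of 3.21 and 2.82.

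dgat2 encodes the acyltransferase that adds the last fatty acid to make triglyceride. The dgat2.L probe set read 3680.3 and 4626 in whole oocytes of females 1 and 2, and 38294 and 19174 in their cortices. The lower cortex array was still well above both whole oocyte arrays, with a change of 10.4-fold in female 1 and 4.13-fold in female 2 (6.54-fold in the fit, log2 2.71 ± 0.38).

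In each female the droplet protein genes had smaller ratios than acsl1.L, acsl1.S and the brighter acsbg2.L probe set, a difference that was not tested. plin2 encodes perilipin 2, a coat protein of lipid droplets in most cell types. The plin2.L probe set read 6018 and 11360.4 in whole oocytes of females 1 and 2, and 33294 and 39067 in their cortices. On the log2 scale its whole oocyte arrays differed more (0.91) than its cortex arrays (0.23), and the change was 5.52-fold in female 1 and 3.43-fold in female 2 (4.35-fold in the fit, log2 2.12 ± 0.35). The plin2.S probe set read 6999 and 4869.7 in whole oocytes of females 1 and 2, and 32239.5 and 29307 in their cortices. Its change was 4.60-fold and 6.0-fold (5.25-fold in the fit, log2 2.39 ± 0.30), so for plin2 too the probe sets of the copies ranked the females in opposite order. plin2.L was not called without whole oocyte replicate 1, where its log2 change was 1.66.

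cidec encodes a protein that in mouse adipocytes drives the merging and growth of droplets. The cidec.L probe set read 1673 and 2067 in whole oocytes of females 1 and 2, and 8176 and 4894 in their cortices. The groups were apart, with the smallest change among the 8 called probe sets, 4.84-fold in female 1 and 2.36-fold in female 2 (3.38-fold in the fit, log2 1.76 ± 0.38). It was close to the limit of the test and was not called with the females as a replicate block, without either whole oocyte array (1.61 without replicate 1 and 1.91 without replicate 2), when dim probe sets were kept in, or when the intensity trend was left out.

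**Figure D2:**
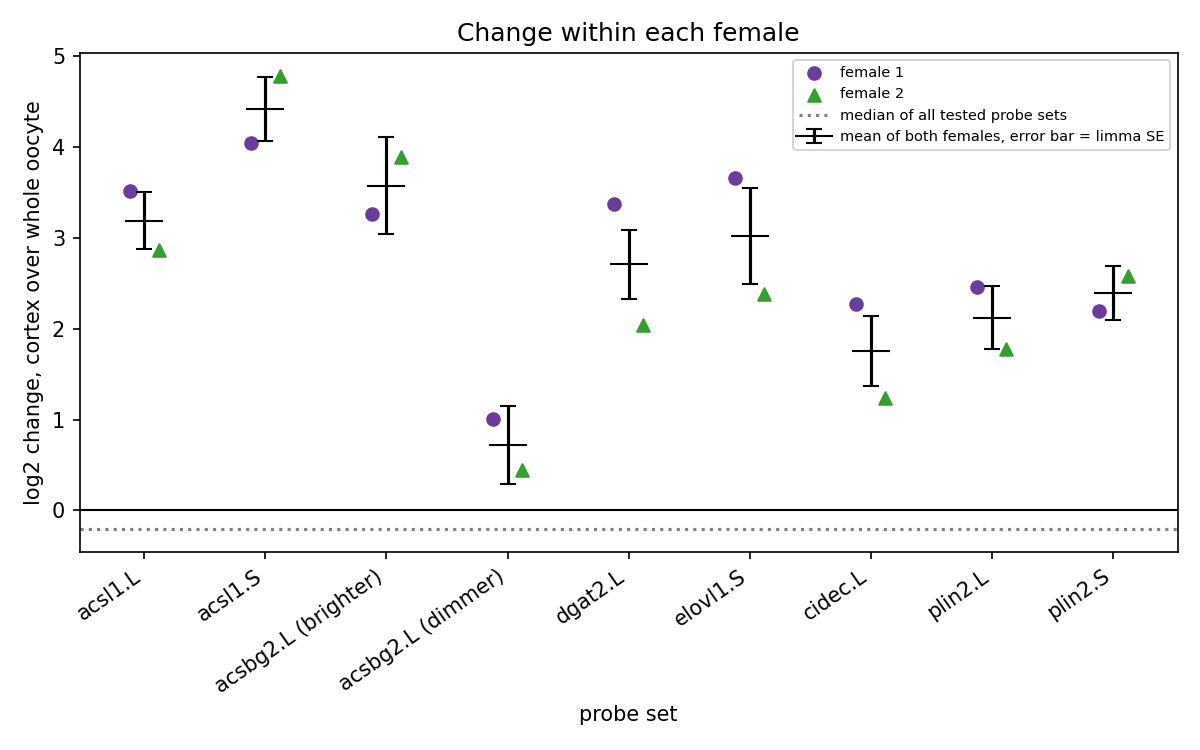
Log2 change of cortex over whole oocyte in female 1 (circles) and female 2 (triangles), with the fitted change and its limma SE in black and the median of all tested probe sets as a dotted line. The change is above 0 in both females for all 9 probe sets, and larger in female 1 for 6 of them.

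The change was larger in female 1 for 6 of the 9 probe sets and larger in female 2 for acsl1.S, the brighter acsbg2.L probe set and plin2.S. Over all tested probe sets the share with the larger change in female 1 was 49.1%, and over the 308 called higher it was 78.6%. With 1 array per female and sample type, the difference between the females' changes has no replicate and was not tested.

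The difference between the donor females at fixed sample type was not itself used to choose the genes and was tested. It is not independent of that choice, because a clear difference between groups also needs arrays of a group to lie close together. By limma with sample type in the model, 0 of the 9 probe sets and 0% of the 9295 tested ones passed at the adjusted threshold of 0.05; before adjustment 573 were higher and 748 lower in female 2 at that p. The lowest adjusted p over all probe sets was 0.343. The brighter acsbg2.L probe set had a log2 difference of -1.17 ± 0.30 (female 2 over female 1; unadjusted p = 0.0085, adjusted p = 0.343), with -1.48 in whole oocytes and -0.85 in cortices. elovl1.S had -1.03 ± 0.37 (unadjusted p = 0.035, adjusted p = 0.344), most of it in the cortices, where the difference was -1.67 against -0.39 in whole oocytes. For plin2 the probe sets of the copies pointed opposite ways, with 0.57 ± 0.26 for plin2.L (adjusted p = 0.367) and -0.33 ± 0.24 for plin2.S (adjusted p = 0.525). Female 2 was lower in both sample types for 3 of the 9 probe sets, higher in both for 1, and the sample types disagreed for 5. None of these differences passed the test, which had 1 residual degree of freedom.

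**Figure D3:**
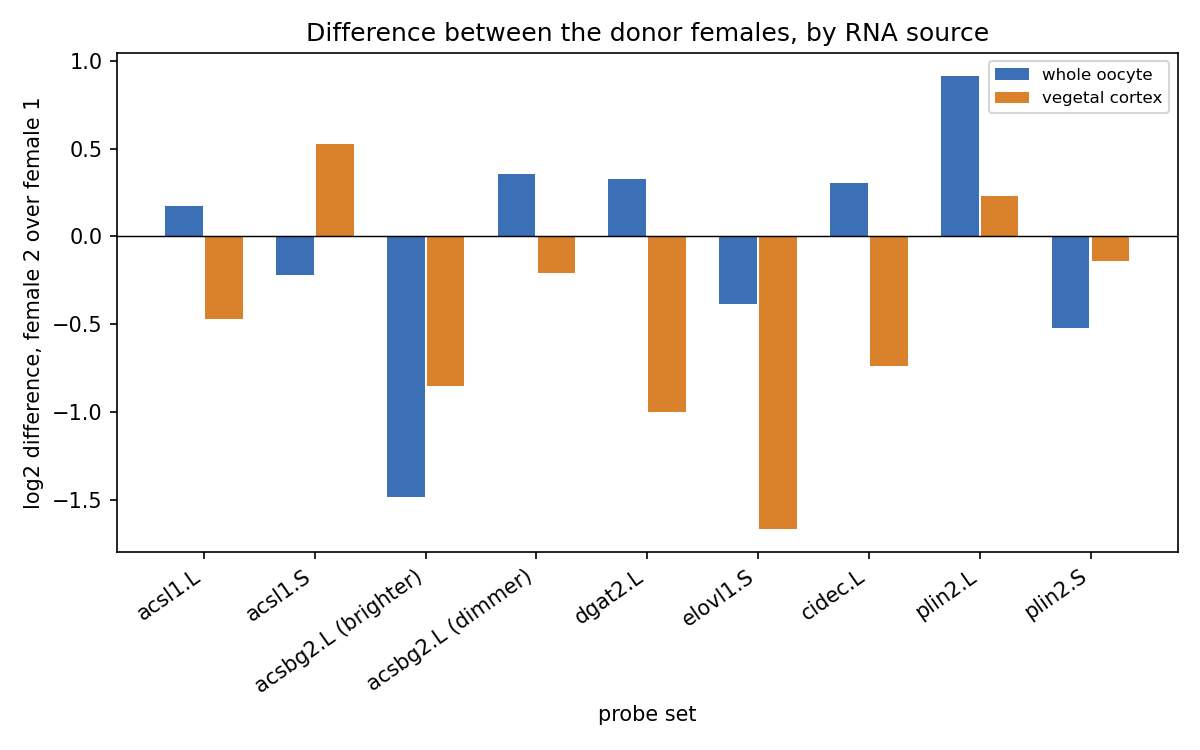
Log2 difference of female 2 over female 1 for each of the 9 probe sets, in whole oocytes (blue bars) and in vegetal cortices (orange bars), 1 array each. The largest bars are elovl1.S in cortices (-1.67) and the brighter acsbg2.L probe set in whole oocytes (-1.48).

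Other genes of the pathway were followed in 5 lists of lipid genes, with the 8 genes left out. In the order used below, the lists held 33, 25, 23, 30 and 34 symbols. Singly named probe sets existed for 10, 12, 10, 9 and 25 other genes, with homeologs counted apart. Listed genes without one, among them dgat1, fasn, acsl3 and pnpla2, are not covered. Of 75 probe sets for 66 genes, 54 reached the signal limit, and 0 were called higher and 0 lower by limma, beside 3.31% and 0% of all tested probe sets. Taking out genes that were chosen for their difference lowers the shares of higher probe sets among those that remain. The shares given here therefore do not describe lipid genes as a whole. At an unadjusted p under 0.05 by limma, 1 of the 54 was higher and 5 were lower, where 745 and 429 of all 9295 tested probe sets were. The median log2 change was -0.36 (-0.35 in female 1 and -0.44 in female 2), where all tested probe sets had -0.20, and 14 of the 54 lay above 0 (25.9%, against 34.3% of all tested). Both cortex arrays were above both whole oocyte arrays for 3 of them (5.56%, against 14.7%) and below for 21 (38.9%, against 31.8%). No listed probe set reached the log2 change of cidec.L, and the highest was 1.49.

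**Figure D4:**
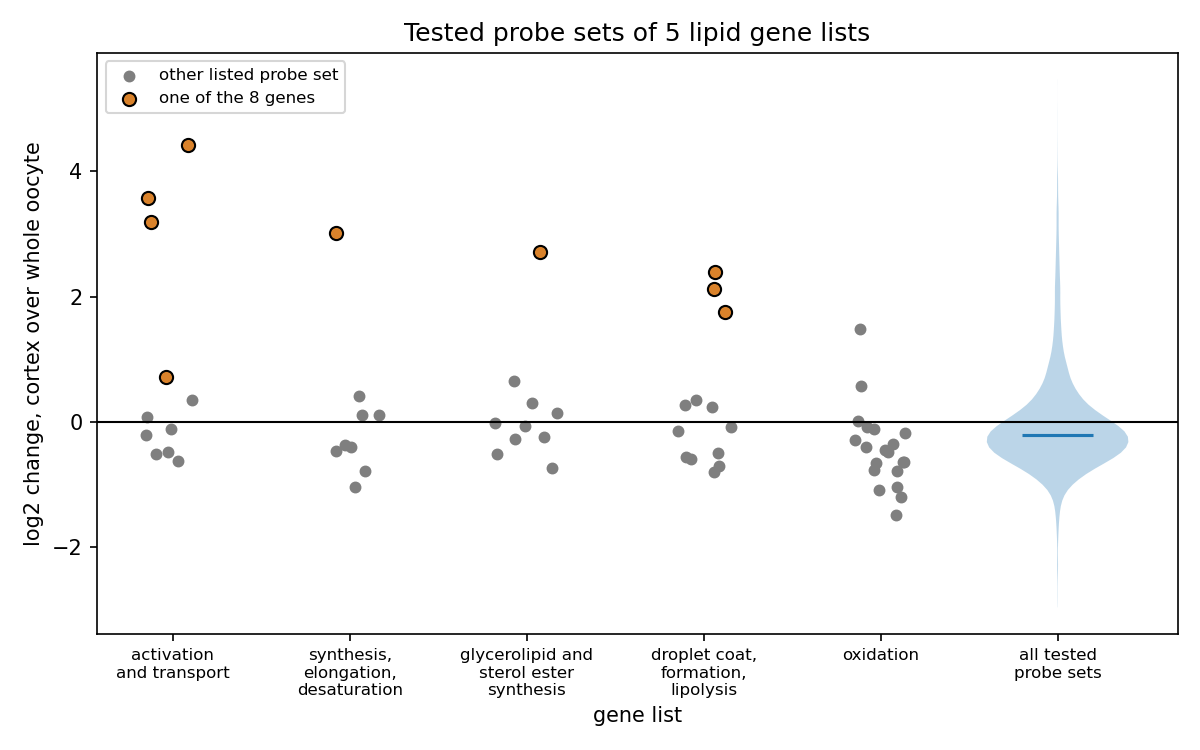
Log2 change of cortex over whole oocyte for the tested probe sets of 5 lipid gene lists, with the 8 chosen genes in orange, other listed genes in grey, and the spread of all tested probe sets with its median at the right. The grey points lie between -1.48 and 1.49, and 8 of the 9 orange points lie above them.

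Other genes of fatty acid activation and transport had 7 tested probe sets, 0 of them called, with log2 changes from -0.62 to 0.35. acsl4.S, a sister acyl-CoA synthetase that prefers arachidonic acid, had mean signals of 4898 in whole oocytes and 6246 in cortices (log2 0.35 ± 0.36, adjusted p = 0.689). The acyl-CoA binding protein genes dbi.L and acbd6.S were at -0.62 ± 0.34 and -0.51 ± 0.33. Each had both cortex arrays below both whole oocyte arrays, a separation that 31.8% of all tested probe sets showed. The homeolog dbi.S, picked after its values were seen, was at 0.08 ± 0.43, with overlapping groups. slc27a6.L, a fatty acid transport protein gene, was at -0.11 ± 0.39.

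In synthesis, elongation and desaturation, 0 of 8 tested probe sets were called. Both homeologs of elovl7, another elongase gene, were bright in whole oocytes and dimmer in cortices. elovl7.L went from a mean of 10282 to 5548 (log2 -1.04 ± 0.45, adjusted p = 0.392) and elovl7.S from 10334 to 6157 (-0.79 ± 0.34, adjusted p = 0.395). Without vegetal cortex replicate 1 their log2 changes were -1.71 and -1.15. The genes of the dehydratase and reductase that work with the elongases, hacd2.L and tecr.L, were both at 0.11 (SE 0.33 and 0.43).

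In glycerolipid and sterol ester synthesis, 0 of 9 tested probe sets were called and the median was -0.07. mogat1.L, an acyltransferase gene of the same family as dgat2, had mean signals of 4486 and 3609 (log2 -0.23 ± 0.43). gpat4.L and agpat3.L, acyltransferase genes of earlier steps of glycerolipid synthesis, were at 0.31 ± 0.39 and 0.65 ± 0.50. soat2.S, whose product makes cholesteryl esters, was at -0.51 ± 0.32 (adjusted p = 0.531).

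Among genes of the droplet coat, droplet formation and lipolysis, 0 of 10 tested probe sets were called. plin3, the other perilipin gene that was tested, had lower mean signals in cortices for both copies: 9282 and 5659 for plin3.S (log2 -0.71 ± 0.31, adjusted p = 0.402) and 3965 and 2632 for plin3.L (-0.59 ± 0.34, adjusted p = 0.507). Both cortex arrays lay below both whole oocyte arrays for each, as they did for 31.8% of all tested probe sets. faf2.S, a droplet-associated protein gene, was at 0.23 ± 0.49, and the brighter rab18.S probe set, for a small GTPase found on droplets, at -0.55 ± 0.44. cidea, the nearest relative of cidec on the array, was picked after its values were seen: its tested probe sets were at -0.80 ± 0.48 and -0.08 ± 0.40 for cidea.S and -0.14 ± 0.39 for cidea.L. The first of these read 1719 and 1138 in whole oocytes of females 1 and 2, and 1175 and 537.5 in their cortices, so its groups overlapped. Another cidea.L probe set, just below the signal limit, was at -0.95, with both cortex arrays below both whole oocyte arrays. The summed signals of this list were 24103 and 22255 in whole oocytes and 16645 and 19633 in cortices.

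Genes of fatty acid oxidation had 20 tested probe sets, 0 called, with a median of -0.46. Of the 20, 3 lay above 0 and 17 below, where 34.3% of all tested probe sets lay above 0, with a median of -0.20. ppara.S, which encodes a nuclear receptor that regulates fatty acid oxidation genes, had the highest log2 change of the list. Its signals were 2596 and 3367 in whole oocytes, then 10678 and 6489 in cortices, so its groups were apart, with 4.09-fold in female 1 and 1.92-fold in female 2. Its log2 change was 1.49 ± 0.37 and it did not pass (adjusted p = 0.0891). Its log2 change was 1.13 without vegetal cortex replicate 1 and 1.85 without vegetal cortex replicate 2. In these 2 fits a single cortex array was left and the error came from the whole oocytes alone. In the other 10 alternatives its adjusted p lay between 0.0512 and 1. The tested probe set of its homeolog ppara.L, picked after its values were seen, was at 0.58 ± 0.37 (limma adjusted p = 0.538). Its groups were apart, with the cortex higher, as in 14.7% of all tested probe sets. Another ppara.L probe set, below the signal limit, was at -0.78. The other brightest genes of this list lay below 0: the thiolase gene acaa2.L at -1.04 ± 0.35 (adjusted p = 0.251), the electron transfer flavoprotein gene etfa.S at -0.39 ± 0.38 and the acyl-CoA dehydrogenase gene acadm.L at -0.29 ± 0.33. Without vegetal cortex replicate 1 acaa2.L was at -1.30. ppard.S, another receptor gene of the same family, was picked after its values were seen. It was the lowest of the list at -1.48 ± 0.52 (limma adjusted p = 0.282), as far below 0 as ppara.S was above.

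**Figure D5:**
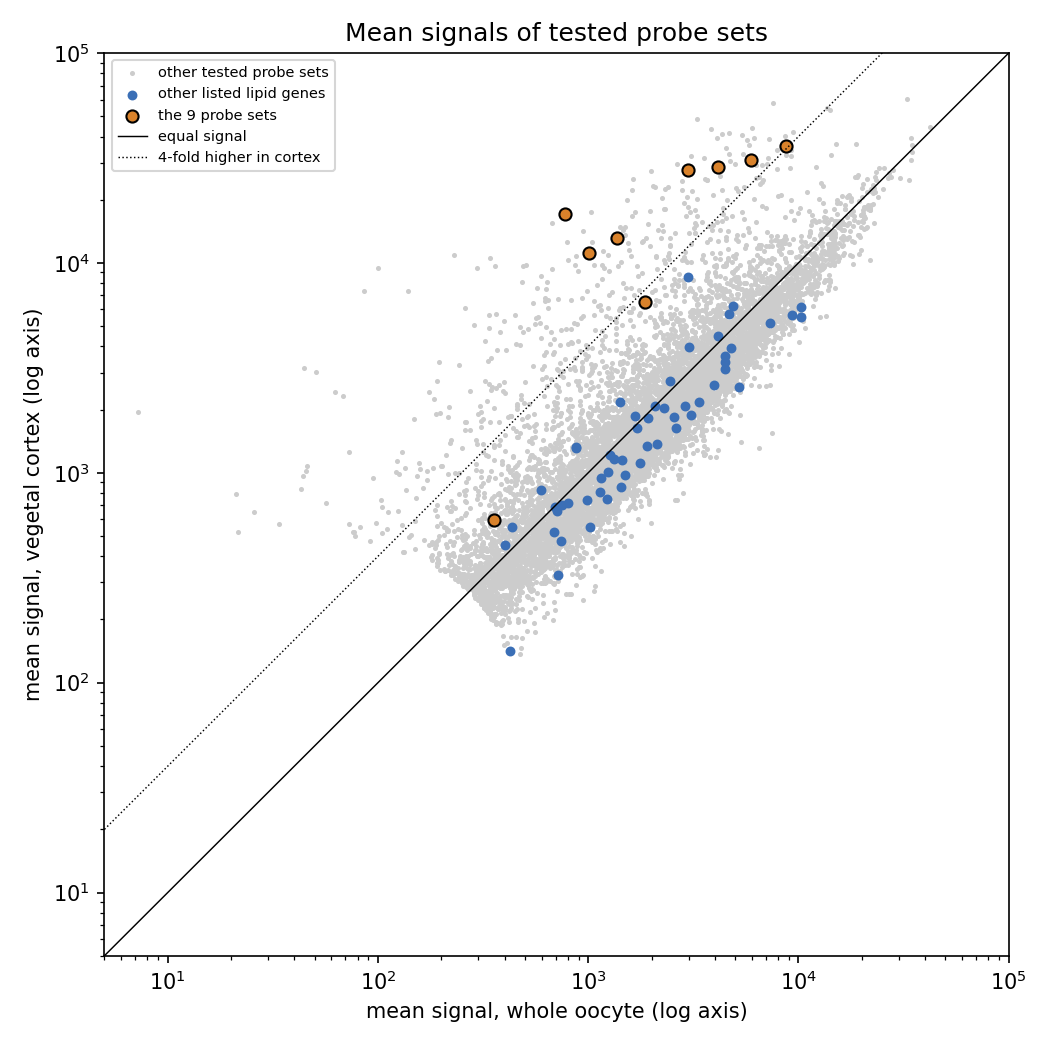
Mean signal in vegetal cortices against mean signal in whole oocytes for the tested probe sets, both on log axes, with the 9 probe sets of the 8 genes in orange and other listed lipid genes in blue. The orange points lie above the line of equal signal, and 7 of them above the dotted 4-fold line. The log2 changes of the other listed lipid probe sets had a median of -0.36, where all tested probe sets had -0.20.

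Outside the lipid genes, the 5 singly named genes whose pattern over the 4 arrays was nearest to the median pattern of the 8 were cab39.L, klhl24.S, sesn2.L, cnppd1.L and exd2.S. Likeness was the Euclidean distance between log2 signals centred on each probe set's own mean, taken on the brightest probe set of each of the 8 genes. The distances ran from 0.14 for cab39.L to 0.25 for exd2.S. cab39.L, which encodes a scaffold protein of the LKB1 kinase, read 1127 and 1187 in whole oocytes of females 1 and 2, and 11925 and 7615 in their cortices. klhl24.S, a Kelch-family gene, had 3730.1 and 3376 in whole oocytes and 39609 and 23626 in cortices. In both, as in the median pattern of the 8, the cortex of female 1 was the brightest array. The 5 genes were 6.81-fold to 8.58-fold higher in cortices. Like the order of the arrays, the size of these changes follows from how the 5 genes were picked.

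Markers of other cell types that could come along with oocytes or cortices were mostly below the signal limit. These marker lists were covered only in part, because some of their genes had no singly named probe set. Of the 10 symbols for fat cells, only cebpa, lipe and pparg had one. Of 4 probe sets for genes of fat cells, cells that also express plin2, cidec and dgat2, 1 was tested, cebpa.L at a log2 change of -0.04 ± 0.46 (adjusted p = 0.977). The sum of the list was 724 and 799 in whole oocytes and 866 and 632 in cortices, and no single signal exceeded 337. None of the 16 follicle and stromal cell probe sets reached the signal limit, with sums of 831 and 988 in whole oocytes and 931 and 1131 in cortices. The same held for the 12 probe sets of liver and yolk precursors, with sums of 355 and 382 in whole oocytes and 324 and 419.6 in cortices. Of 12 blood probe sets 2 were tested and 0 called, with sums of 2131 and 1861 in whole oocytes and 1510.03 and 3326 in cortices. The globin gene hba-l5.L read 748 and 701 in whole oocytes and 565 and 1724 in cortices, and the red cell anion exchanger gene slc4a1.L read 892, 785, 501 and 1188 in the same order. Both were brightest in the cortex of female 2 and lowest in that of female 1, and their part in the results was not tested. No blood probe set below the signal limit had this order. The brightest of those by mean signal, hbg2.L, read 142 and 94.9 in whole oocytes and 158 and 33.4 in cortices. No marker probe set was listed at 0, and in such bulk samples fewer cells of a type and less RNA per cell cannot be told apart. Oocyte markers had 13 tested probe sets and 0 calls, with a median of 0.21 and log2 changes from -0.39 to 1.48. Of these, 9 lay above 0 and 4 below, where 34.3% of all tested probe sets lay above 0. The highest was zp2.L (limma adjusted p = 0.0892). It had both cortex arrays above both whole oocyte arrays, as did zp4.S at 0.64 and ybx2.S at 0.38. That separation was seen in 14.7% of all tested probe sets. For npm2.S, at -0.39, both cortex arrays lay below, as in 31.8% of all tested.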

How the data were processed

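Intensity values, 1 per probe set and array, were used as the authors deposited them; the submitters' processing notes name MAS5 (version not given in the sources used here). Groups and replicate numbers followed the sample titles, because 1 cortex description repeats another's numbers. The table held 15611 probe sets, 120 of them controls. Symbols came from the platform annotation (9304 probe sets with 1 symbol, 195 with several, 5992 with none), updated by gene identifier from Xenopus_laevis_v10.1 with 2 updates, 0 among the 8 genes. An offset of 19.11 (the 10th percentile) was added before log2, which shrinks the changes of dim probe sets. Those averaging 271.5 or more (the 40th percentile) went into limma 3.58.1 in R 4.3.3 (lmFit, and eBayes with an intensity trend), two-sided, Benjamini-Hochberg adjusted over all tested; the code was tested on simulated data. Fold changes come from fitted log2 changes, or from the same scale within a female. Errors are limma's SE, and 2 arrays per group limit the precision.

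Same-numbered arrays came from 1 female, per the labels' protocols, and their deviations from the group means correlated at 0.347; the main fit had no block. Genes named from each lipid list were the called ones or, with none called, the 4 brightest. The 8 genes, the lists and the tests were chosen with earlier results of these data known. The alternatives changed the offset, filter, normalization, trend, block, bound or arrays.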

Additional observations from a re-analysis of the deposited data

How the results depend on the processing

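The median log2 change of the 9 probe sets stayed between 2.24 and 3.21 when single arrays were left out, and was 2.72 with no offset, 2.69 with the 25th percentile as offset and 2.50 with quantile normalization. Calls among the 9 follow from how the genes were picked and do not support that choice. Of the 9, 8 were called with either offset, the higher signal limit or quantile normalization, and 7 with no filter, no intensity trend or the replicate block. Without whole oocyte replicate 1 there were 5 and without whole oocyte replicate 2 there were 6, and against a 2-fold bound 2 were left, acsl1.L and acsl1.S. Over all tested probe sets, 308 were called higher and 0 lower. The replicate block gave 355 and 0, and a 2-fold bound gave 81 increases. Either offset, the higher signal limit and quantile normalization gave 301 to 328 increases. No filter gave 222 and no intensity trend 250. Leaving out single arrays gave 125 to 697 increases and 0 to 673 decreases, and quantile normalization 1 decrease. The listed lipid genes had 0 calls with every setting that kept all 4 arrays, the replicate block included. With either cortex array left out, ppara.S was called higher. Without vegetal cortex replicate 1, listed genes were called lower, elovl7.L, elovl7.S, cidea.S, acaa2.L and ppard.S among them. That setting also called many other tested probe sets lower, where the main fit called 0. The difference between females gave 0 calls in all 7 alternatives run. Under quantile normalization plin2.S moved to 2.11. Calls with 1 cortex array left take their error from the whole oocytes; other causes were not tested. Signals near the offset limit dim probe sets, and the dimmer acsbg2.L probe set lay closest to it.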
